A study of Mus musculus with 16 samples.

Results

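The genes described here mark atrial cardiomyocytes, the muscle cells of the 2 thin-walled upper chambers of the heart. They are the 9 genes Myl7, Myl4, Sln, Nppa, Bmp10, Dkk3, Stard10, Nr2f2 and Kcnj3, each taken by its symbol from a table of 36499 gene rows, of which 24625 held a count in at least 1 library. Each symbol stood on a single row, and all 9 genes passed the filter on low counts that left 15255 genes for testing. They were followed in 16 RNA-seq libraries of mouse cardiac tissue, 4 from each of 4 genotypes. Double KO hearts lacked Clpp and Fgf21, Clpp KO hearts lacked Clpp alone, Fgf21 KO hearts lacked Fgf21 alone, and wild-type hearts carried both genes. Deletion was whole-body: floxed alleles were removed by a Cre recombinase driven by the β-actin promoter, per the labels, so every cell type of the heart was affected. Mice ate normal chow. The labels give the tissue only as cardiac, without a chamber, an age, a sex or a strain. Nothing in them ties each library to its own mouse, and the p-values below therefore describe only how these libraries varied, some of which may be technical. CLPP is a protein-degrading enzyme inside mitochondria, and FGF21 is a hormone that stressed tissues can release. The study asked how FGF21 shapes the response to a mild defect of mitochondria.

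Atrial and ventricular cardiomyocytes share most of their contractile proteins but use different myosin light chains, calcium-pump regulators and potassium channels. In the adult mouse, atrial muscle is also the main source of atrial natriuretic peptide, a hormone that lowers blood volume and pressure, and of BMP10, which comes from the right atrium. In bulk tissue, fewer cells of a type and less RNA per cell cannot be told apart.

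The promoters of 7 of the 9 genes were found in RefSeq on build GRCm38.p6, as windows that begin 250 bases before the annotated start of the gene and end 50 bases after it. Those of Myl7, Nppa and Bmp10 are shown because Myl7 divides the libraries into 2 sets, Nppa is the hormone gene and Bmp10 leaves the common pattern. The 3 windows lie at chr11:5898733-5899032 on the minus strand for Myl7, at chr4:148000472-148000771 on the plus strand for Nppa and at chr6:87428744-87429043 on the plus strand for Bmp10. They are written 5′ to 3′ along the gene, with matches to the searched motifs in capitals.
Myl7: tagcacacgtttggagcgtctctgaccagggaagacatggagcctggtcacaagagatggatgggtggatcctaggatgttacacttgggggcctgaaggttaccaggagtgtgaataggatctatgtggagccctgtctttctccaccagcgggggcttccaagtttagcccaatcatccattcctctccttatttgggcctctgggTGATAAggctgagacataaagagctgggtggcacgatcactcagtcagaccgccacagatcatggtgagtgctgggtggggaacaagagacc
Nppa: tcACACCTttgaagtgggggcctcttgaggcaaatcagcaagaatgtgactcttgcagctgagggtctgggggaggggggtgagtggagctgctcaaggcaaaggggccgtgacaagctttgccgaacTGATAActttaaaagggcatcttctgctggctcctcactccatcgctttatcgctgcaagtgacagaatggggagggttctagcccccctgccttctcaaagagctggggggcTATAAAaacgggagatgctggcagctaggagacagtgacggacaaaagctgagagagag
Bmp10: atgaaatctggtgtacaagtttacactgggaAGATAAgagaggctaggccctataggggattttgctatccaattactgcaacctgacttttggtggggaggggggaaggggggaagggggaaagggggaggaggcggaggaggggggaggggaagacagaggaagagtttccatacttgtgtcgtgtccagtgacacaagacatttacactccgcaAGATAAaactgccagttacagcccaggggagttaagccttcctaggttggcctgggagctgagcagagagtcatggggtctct
The motifs searched on both strands were the GATA site (any of the words AGATAA and AGATAG or the words TGATAA and TGATAG), the T-box motif AGGTGT, the TATA box TATAAA and the MEF2 site. GATA and T-box factors and MEF2 are transcription factors of heart muscle. Myl7 held 1 GATA match, 42 bases before the start, and Bmp10 held 2, at 219 and 33 bases before it. Nppa held a GATA match at 122 bases before the start, a T-box match on the opposite strand near the far end of the window and a TATA box close to the annotated start. In all, a GATA match was present in 5 of the 7 promoters (Myl7, Nppa, Bmp10, Stard10 and Nr2f2), against 29.8% of all 32851 promoters in the table. A T-box match was present in 2 (Nppa and Kcnj3, background 13.7%), a TATA box in 1 (background 13.6%) and the MEF2 site in 0 (background 0.557%). No 2 matches overlapped. A match is a description of the letters and not a binding site.

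Libraries held 36260545 to 51820727 counts. Levels below are CPM, counts scaled to a common library size, with TMM factors (trimmed mean of M-values) that ran from 0.674 to 1.83. Genes encoded in mitochondrial DNA took 56.1% to 60.8% of counts in double KO and Clpp KO libraries and 25.6% to 39.4% in Fgf21 KO and wild-type libraries. Clpp went with the labels: it stood at 7.26 to 9.68 CPM in the 8 libraries labelled as lacking it and at 28.6 to 46.9 CPM in the other 8. Fgf21 had 0 counts in each of the 4 double KO libraries, 21, 6, 28 and 14 counts in Clpp KO, 0 counts in each of the 4 Fgf21 KO libraries, and 1, 0, 5 and 0 counts in wild type, so its counts do not separate Fgf21 KO from wild type. Within groups, wild-type replicates 1 and 3 were most alike, with a chi-square per gene of 5.68 against 23.3 to 408 for all other such pairs. They still differed beyond sampling noise and were kept as 2 libraries. Y-linked genes summed to 2.29 CPM in wild-type replicate 2 and 35.4 CPM in wild-type replicate 4, and to 54.6 to 81.1 CPM in the other 14 libraries.

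Together the 9 genes took between 0.0153% and 1.90% of all counts in a library. The highest shares, 1.90% and 0.886%, were those of wild-type replicates 2 and 4, and the lowest was that of wild-type replicate 3, so the whole range of these shares lay within the wild-type group. By the mean log2 CPM of the 9 genes, double KO replicates 4 and 3 were lowest, at 1.15 and 1.26. Wild-type replicate 3 had 1.67. The shares were 0.120%, 0.0164%, 0.0200% and 0.0179% in double KO replicates 1 to 4, 0.0630%, 0.318%, 0.135% and 0.0182% in Clpp KO, 0.0491%, 0.191%, 0.0716% and 0.375% in Fgf21 KO, and 0.0162%, 1.90%, 0.0153% and 0.886% in wild type. Library depth varied far less than these shares.

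Myl7 encodes the atrial regulatory light chain of myosin (chromosome 11, 5896637 to 5898782, minus strand, GRCm38). Its level was 247, 1.32, 0.372 and 0.289 CPM in double KO replicates 1 to 4 and 58.9, 496, 162 and 3.55 CPM in Clpp KO. In Fgf21 KO it was 44.9, 165, 46.2 and 465 CPM, and in wild type 1.21, 1729, 1.16 and 1338 CPM. The highest library stood 5992-fold above the lowest. Myl7 divided the libraries into 2 sets with nothing in between: it was at least 44.9 CPM in 10 libraries and at most 3.55 CPM in 6. The low set held double KO replicates 2, 3 and 4, Clpp KO replicate 4 and wild-type replicates 1 and 3. In that set Myl7 was seen in 9 to 113 counts, against 2458 to 114604 counts in the high set. A line at 10 CPM, placed after these values were seen, separates the sets below.

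Myl4 encodes the atrial essential light chain of myosin (chromosome 11, 104550663 to 104595753). It stood at 302, 1.95, 1.12 and 1.09 CPM in double KO and at 77.1, 542, 212 and 4.49 CPM in Clpp KO. In Fgf21 KO its level was 47.1, 240, 60.0 and 527 CPM, and in wild type 2.62, 1609, 2.35 and 1196 CPM. The same 10 libraries were high, and in them Myl4 kept close to Myl7, at 0.894 to 1.45 Myl4 counts per Myl7 count, although Myl7 itself varied from 44.9 to 1729 CPM.

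Sln encodes sarcolipin, a small membrane peptide that inhibits the calcium pump of the sarcoplasmic reticulum (chromosome 9, 53850164 to 53854560). Its level was 51.9, 0.315, 0.0310 and 0 CPM in double KO and 15.1, 106, 36.5 and 0.566 CPM in Clpp KO. Fgf21 KO libraries had 9.05, 52.0, 11.9 and 119 CPM, and in wild type 0.165, 450, 0.187 and 213 CPM. The 0 in double KO replicate 4 allows a level of up to 0.0962 CPM, the value of 3 counts in that library. Sln per Myl7 count ran only from 0.160 to 0.314 over the 10 high libraries, so these 3 contractile and calcium-handling genes varied nearly in step there. Of the double KO group, those libraries include replicate 1 alone. In the low libraries, at low counts, Myl4 per Myl7 count reached 3.78 and Sln per Myl7 count ran from 0 to 0.239.

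Nppa, the gene of atrial natriuretic peptide, lies on chromosome 4 from 148000722 to 148002079. It was 731, 151, 244 and 215 CPM in double KO and 505, 2064, 1011 and 174 CPM in Clpp KO. Fgf21 KO libraries had 229, 928, 399 and 1602 CPM, and in wild type 74.8, 5846, 69.2 and 3439 CPM. Unlike the light chains, Nppa never came near 0: the lowest library held 69.2 CPM and the highest stood 84.4-fold above it. In the 6 libraries with low Myl7, Nppa was 151, 244 and 215 CPM in double KO replicates 2 to 4 and 174 CPM in Clpp KO replicate 4, against 74.8 and 69.2 CPM in wild-type replicates 1 and 3. The values of the 4 Clpp-deficient libraries thus lay above the values of both wild-type libraries while Myl7 was at most 3.55 CPM in all 6. Both wild-type libraries, replicates 1 and 3, are the closest pair within a group. These 6 libraries were set apart by a measured value, so no test was made. Of the 31-base words of the Nppa transcripts, 56.8% also occur in Gm13054, which was not analysed here, so the absolute level of Nppa is uncertain where the counting could split reads.

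Bmp10 encodes a ligand of the bone morphogenetic protein family (chromosome 6, 87428994 to 87437677). Its level was 8.54, 0.0858, 0.0310 and 0.0321 CPM in double KO and 9.31, 142, 125 and 0.597 CPM in Clpp KO. In Fgf21 KO it was 0, 71.9, 40.3 and 0.0995 CPM, and in wild type 0.220, 246, 0.102 and 97.9 CPM. Bmp10 was low in all 6 libraries with low Myl7 and high in 8 of the 10 with high Myl7. The exceptions were Fgf21 KO replicates 1 and 4, described further below.

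Dkk3 encodes a secreted glycoprotein of the Dickkopf family (chromosome 7, 112116017 to 112159057). It was 64.6, 6.50, 1.52 and 1.70 CPM in double KO and 20.1, 135, 62.7 and 4.02 CPM in Clpp KO. Fgf21 KO hearts had 6.65, 71.2, 12.1 and 87.7 CPM, and in wild type 1.61, 210, 1.67 and 138 CPM. It followed Myl7 with a range of 138-fold, but double KO replicate 2 held almost as much Dkk3 as Fgf21 KO replicate 1 (6.50 and 6.65 CPM), with Myl7 at 1.32 and 44.9 CPM.

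Stard10 encodes a phospholipid transfer protein (chromosome 7, 101317086 to 101346626). Its level was 42.9, 11.8, 14.2 and 13.3 CPM in double KO and 19.3, 67.4, 35.4 and 15.4 CPM in Clpp KO. Fgf21 KO hearts had 25.1, 46.8, 23.4 and 69.4 CPM, and in wild type 12.7, 176, 11.1 and 118 CPM. Stard10 had a floor of 11.1 to 15.4 CPM in the 6 low libraries, and its whole range was 15.9-fold.

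Nr2f2 encodes COUP-TFII, a nuclear receptor that sets atrial identity in mouse cardiomyocytes and also acts in veins and lymphatic vessels (chromosome 7, 70351944 to 70366735, minus strand). It was 7.92, 6.52, 8.88 and 7.95 CPM in double KO and 6.75, 11.2, 8.31 and 8.04 CPM in Clpp KO. In Fgf21 KO it was 7.04, 9.59, 7.37 and 10.1 CPM, and in wild type 7.13, 15.4, 7.85 and 9.98 CPM. The highest level was only 2.36-fold the lowest, and the low and high sets overlapped, at 6.52 to 8.88 CPM and 6.75 to 15.4 CPM.

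Kcnj3 encodes GIRK1, a subunit of the potassium channel through which acetylcholine slows the atria and the pacemaker (chromosome 2, 55435970 to 55598145). Its level was 48.3, 24.4, 20.2 and 26.4 CPM in double KO and 30.4, 75.2, 47.9 and 24.7 CPM in Clpp KO. In Fgf21 KO it was 29.4, 46.6, 33.0 and 84.7 CPM, and in wild type 34.9, 96.2, 32.9 and 47.1 CPM. Its range was 4.76-fold, and the low set, at 20.2 to 34.9 CPM, overlapped with the high set. Of the 31-base words of Kcnj3, 30.2% occur elsewhere, mainly in Gm26794, which was not analysed here.

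**Figure D1:**
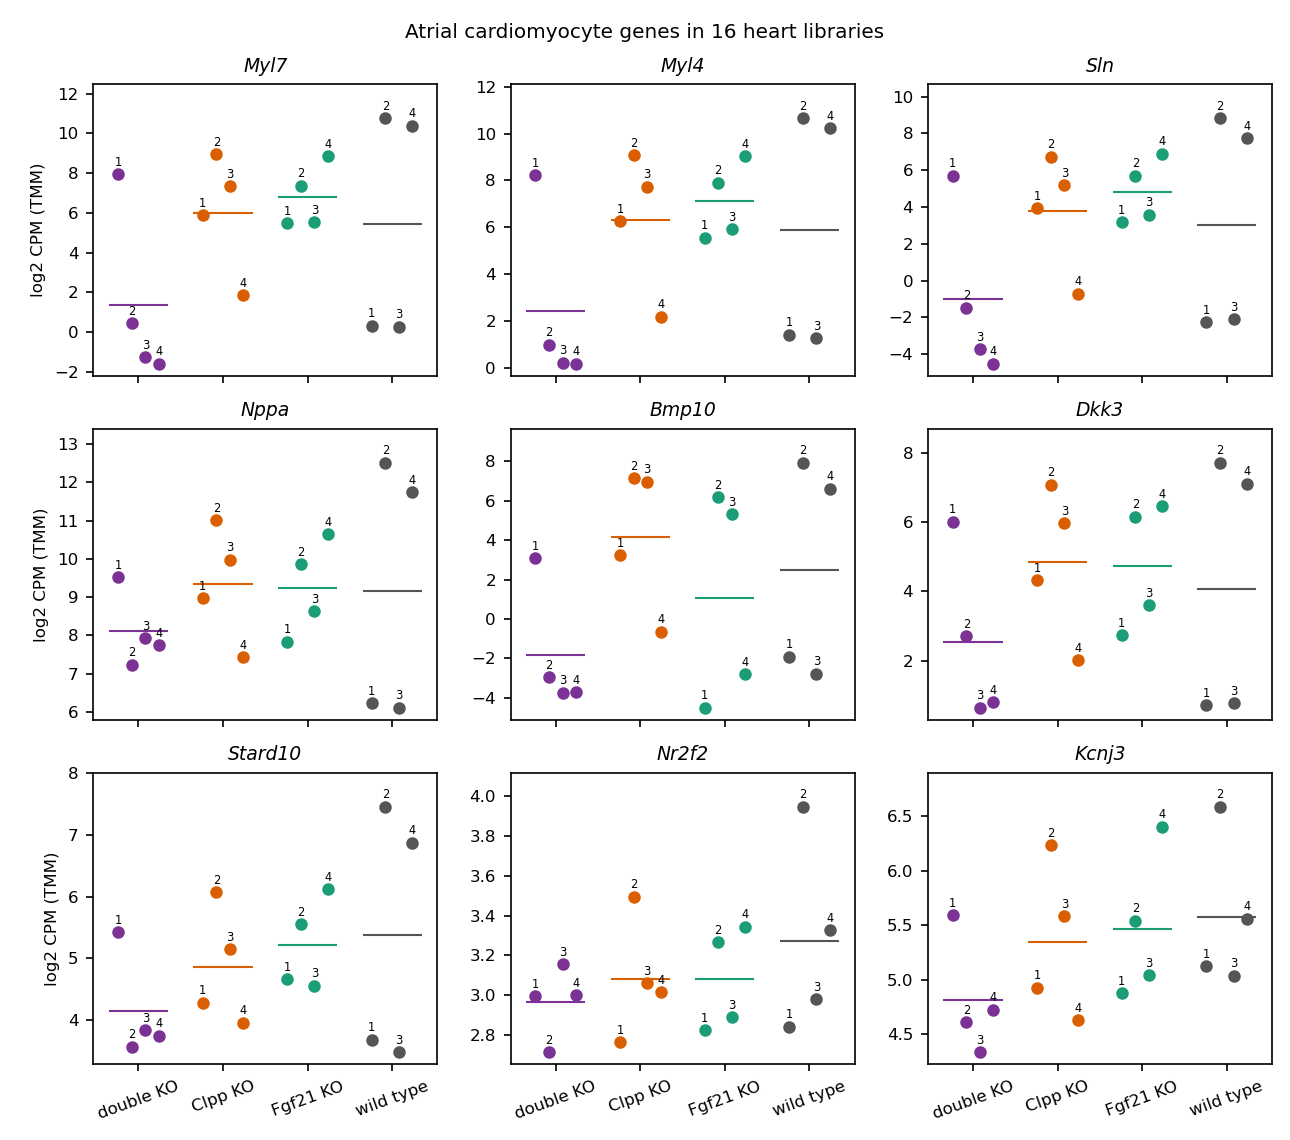
Level of each of the 9 genes in every library, as log2 CPM scaled by TMM with a prior count of 2, by genotype from double KO on the left to wild type on the right. Points are libraries with their replicate number and bars are group means; wild-type replicates 2 and 4 stand at the top and replicates 1 and 3 near the bottom for Myl7, Myl4, Sln, Nppa, Dkk3 and Stard10.

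Per kilobase of exon, the levels of the 9 genes could be set side by side. In wild-type replicate 2, the library richest in them, Nppa led with 6758 CPM per kilobase, followed by Myl7 with 2931, Myl4 with 347, Sln with 342, Stard10 with 72.8, Dkk3 with 62.6, Bmp10 with 54.8, Kcnj3 with 18.4 and Nr2f2 with 1.78. In double KO replicate 4, which had the least Myl7, Nppa still led with 248 CPM per kilobase, but Stard10 at 5.51, Kcnj3 at 5.07, Nr2f2 at 0.922 and Dkk3 at 0.506 then stood above Myl7 at 0.489. These lengths are the union of all annotated exons, which lowers genes with long rare exons such as Myl4.

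How closely the genes moved together was measured as the Pearson correlation of log2 CPM over libraries, as a description only, since libraries share their makeup and depth and fall into 2 sets. Over all 16 libraries, each gene against the mean of the other 8 gave r = 0.98 for Myl4, 0.97 for Dkk3, Myl7 and Sln, 0.93 for Stard10, 0.92 for Nppa, 0.83 for Kcnj3, 0.78 for Bmp10 and 0.66 for Nr2f2. Within the 10 libraries of the high set alone, r was 0.96 for Nppa, 0.94 for Dkk3, 0.93 for Myl4, 0.92 for Sln, 0.91 for Myl7, 0.88 for Stard10 and Nr2f2, 0.77 for Kcnj3 and 0.47 for Bmp10. Within the 6 libraries of the low set, Myl7, Myl4, Sln and Bmp10 still moved together (r = 0.96, 0.91, 0.90 and 0.87), while Dkk3 (0.57), Stard10 (0.22), Kcnj3 (0.02), Nppa (−0.35) and Nr2f2 (−0.35) did so less or not at all. Sln had only 0 to 18 counts in that set and Bmp10 1 to 19. Clpp KO replicate 4 was the highest of the set for Myl7, Myl4, Sln and Bmp10 alike. Over all libraries Myl7 and Sln were the closest pair (r = 0.998, and 0.990 in the high set), and in the high set Myl7 and Myl4 were (r = 0.995). With the mean of each genotype taken out, all 9 values lay between 0.68 and 0.98, pooled over the genotypes. No r was taken within a single genotype, and within Fgf21 KO Bmp10 did not follow Myl7. Leaving out the 2 libraries farthest from the median of the mean, double KO replicates 3 and 4, gave values of 0.72 to 0.98.

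**Figure D2:**
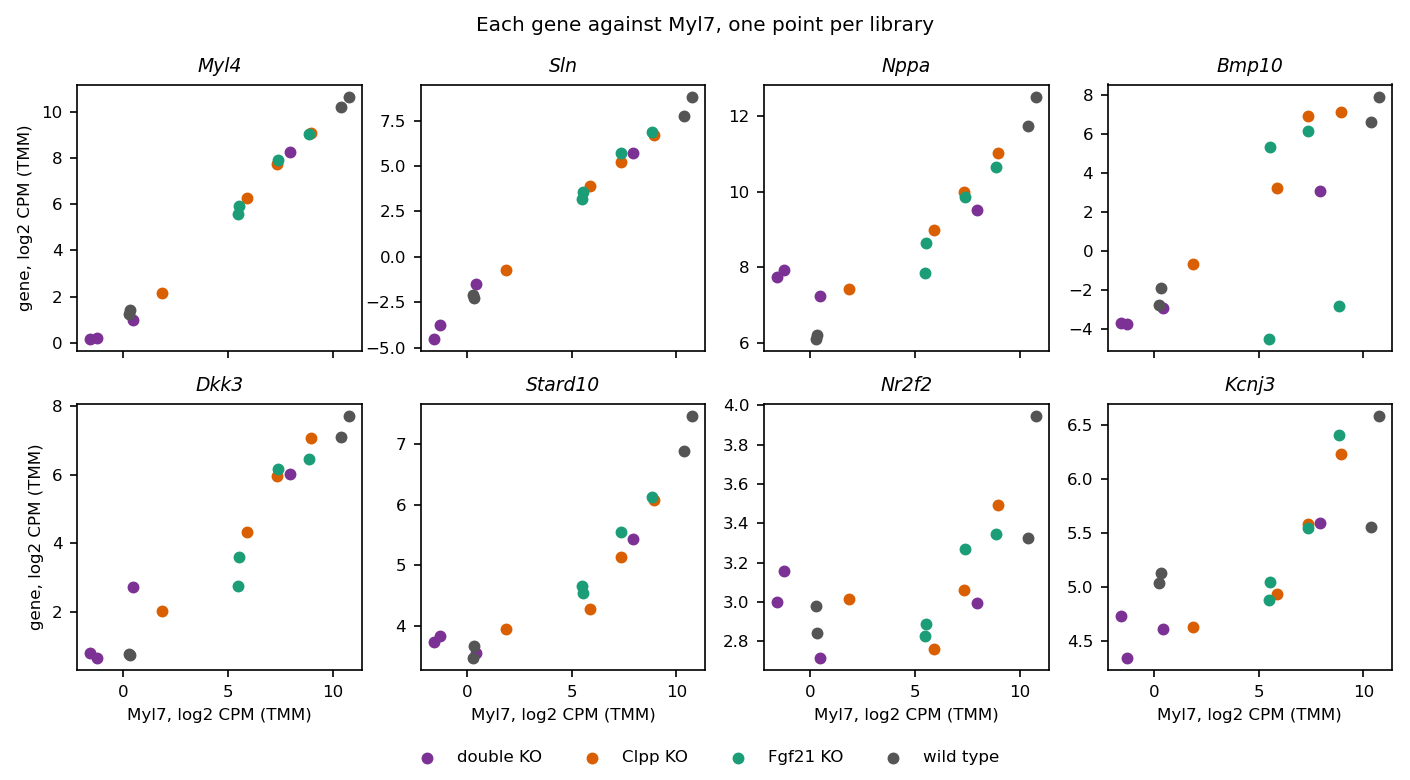
Level of 8 atrial genes against that of Myl7, each axis as log2 CPM scaled by TMM, with 1 point per library coloured by genotype. Myl4 and Sln lie along a line through all libraries, Nppa, Stard10, Nr2f2 and Kcnj3 flatten at low Myl7, and Bmp10 has 2 Fgf21 KO libraries far below the others of similar Myl7.

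Bmp10 left the pattern within the Fgf21 KO group. Bmp10 counts there were 0, 3669, 2143 and 5 in replicates 1 to 4, while Myl7 counts were 2527, 8432, 2458 and 23342. Replicates 1 and 3 had nearly the same Myl7, at 0.973-fold, but Bmp10 in replicate 3 was at least 755-fold higher than in replicate 1, counted from a floor of 3 counts in that library. Replicate 4 had 2.81-fold more Myl7 than replicate 2 and 723-fold less Bmp10. In counts per 1000 Myl7 counts, Bmp10 was 34.6 in the high double KO library, 158, 287 and 770 in Clpp KO replicates 1 to 3, 0, 435, 872 and 0.214 in Fgf21 KO, and 142 and 73.2 in wild-type replicates 2 and 4. Over the same 10 libraries Myl4 per Myl7 count stayed within 0.894 to 1.45 and Nppa within 2.57 to 8.64. Bmp10 was singled out after its values were seen, and no test was made. The floors of 3 counts cover counting error only.

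**Figure D3:**
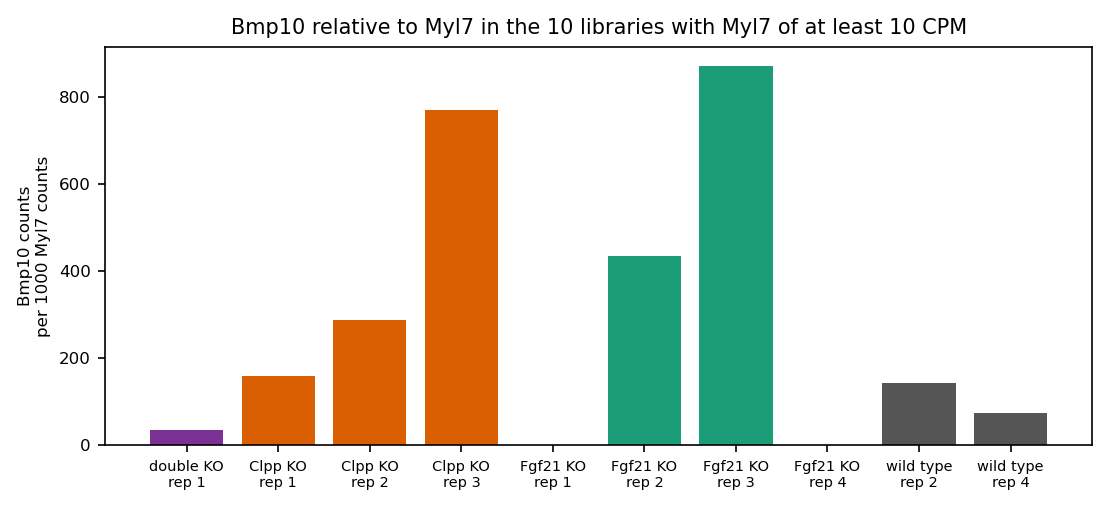
Counts of Bmp10 per 1000 counts of Myl7 in the 10 libraries with Myl7 of at least 10 CPM, coloured by genotype from double KO on the left to wild type on the right. Bars start at 0; Bmp10 is at 0 and 0.214 in Fgf21 KO replicates 1 and 4, which leaves their bars invisible.

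The first comparison sets Clpp KO hearts against wild-type hearts. All 9 genes had a lower fitted level in Clpp KO, by 0.23 (Nr2f2) to 2.09 (Myl7) on the log2 scale, and none passed the test. The mean level of Myl7 was 180 ± 221 CPM in Clpp KO and 768 ± 899 CPM in wild type, with n = 4 and SD for both. The log2 fold change was −2.09 ± 2.22 (edgeR quasi-likelihood test with Benjamini-Hochberg, adjusted p = 0.593). Stard10 had the smallest p, at 34.4 ± 23.7 CPM in Clpp KO and 79.4 ± 81.5 CPM in wild type (log2 fold change −1.21 ± 0.83, adjusted p = 0.402 by edgeR). The groups overlapped for all 9 genes, and wild type held both the highest and the lowest value for each except Nr2f2 and Kcnj3, whose lowest values were in Clpp KO. By comparison, edgeR called 1.63% of all genes at an adjusted p under 0.05, and 21.3% had an unadjusted p under 0.05, where 0 of the 9 did. The median log2 fold change of the 9 genes was −1.21 against −0.04 over all genes, and it became −0.32 without wild-type replicate 2.

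The direction of these values rested on wild-type replicates 2 and 4. Without them, all 9 genes were higher in Clpp KO, with a median log2 fold change of 5.09: Myl7 at 7.26 ± 3.41, Nppa at 3.71 ± 1.19 and Stard10 at 1.54 ± 0.75 (edgeR, adjusted p = 0.47, 0.235 and 0.485). The 2 wild-type libraries left in that fit are replicates 1 and 3, the closest pair within a group. limma voom, which averages log2 values and gives outlying libraries less weight, also placed all 9 genes higher in Clpp KO and called Nppa (3.13 ± 0.64, adjusted p = 0.00351), Dkk3 (4.22 ± 1.3, adjusted p = 0.0336) and Myl4 (5.11 ± 1.63, adjusted p = 0.0387). In this comparison voom called 2815 of all 15255 genes, far more than edgeR did.

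The second sets Fgf21 KO hearts against wild-type hearts. Again all 9 genes had a lower fitted level in Fgf21 KO and none passed the test. Myl7 averaged 180 ± 198 CPM in the 4 Fgf21 KO libraries against 768 ± 899 CPM in the 4 wild-type libraries (SD; log2 fold change −2.09 ± 2.22, edgeR adjusted p = 0.721). Nppa, with the smallest p, was 789 ± 618 CPM in Fgf21 KO and 2357 ± 2816 CPM in wild type (−1.58 ± 1.21, edgeR adjusted p = 0.624). The 4 Fgf21 KO libraries all had Myl7 of at least 44.9 CPM and lay inside the wild-type range of 1.16 to 1729 CPM. Of all genes, edgeR called 0.0459%, and 9.17% had an unadjusted p under 0.05, which 0 of the 9 had. The median of the 9 was −1.58 against −0.01 over all genes, −0.19 without wild-type replicate 2, and 4.75 without wild-type replicates 2 and 4, where Nppa stood at 3.46 ± 1.17 (edgeR adjusted p = 0.657) and all 9 genes were higher in Fgf21 KO.

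Double KO hearts had the lowest mean level of all 9 genes. Only replicate 1 of the 4 double KO libraries was rich in them. Myl7 was 62.2 ± 123 CPM in double KO and 768 ± 899 CPM in wild type (SD, n = 4 each). Bmp10 had the largest change, with 2.17 ± 4.24 CPM in double KO and 86.0 ± 116 CPM in wild type (log2 fold change −5.27 ± 2.57, edgeR adjusted p = 0.237). Stard10 had the smallest p, with 20.6 ± 14.9 CPM in double KO and 79.4 ± 81.5 CPM in wild type (−1.95 ± 0.85, edgeR adjusted p = 0.196). All 9 genes were below 0 with a median of −2.81, and 0 of 9 were called, while 2 of 9, Nppa and Stard10, had an unadjusted p under 0.05 (edgeR 0.0437 and 0.0386). Of all genes, 1.53% were called and 22.8% had an unadjusted p under 0.05, so a count of 2 in 9 is near the background. Without wild-type replicates 2 and 4, 8 of the 9 turned positive, with a median of 3.51 and Kcnj3 at −0.18 ± 0.51 (edgeR adjusted p = 0.945). Without double KO replicate 1 the median was −4.75.

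**Figure D4:**
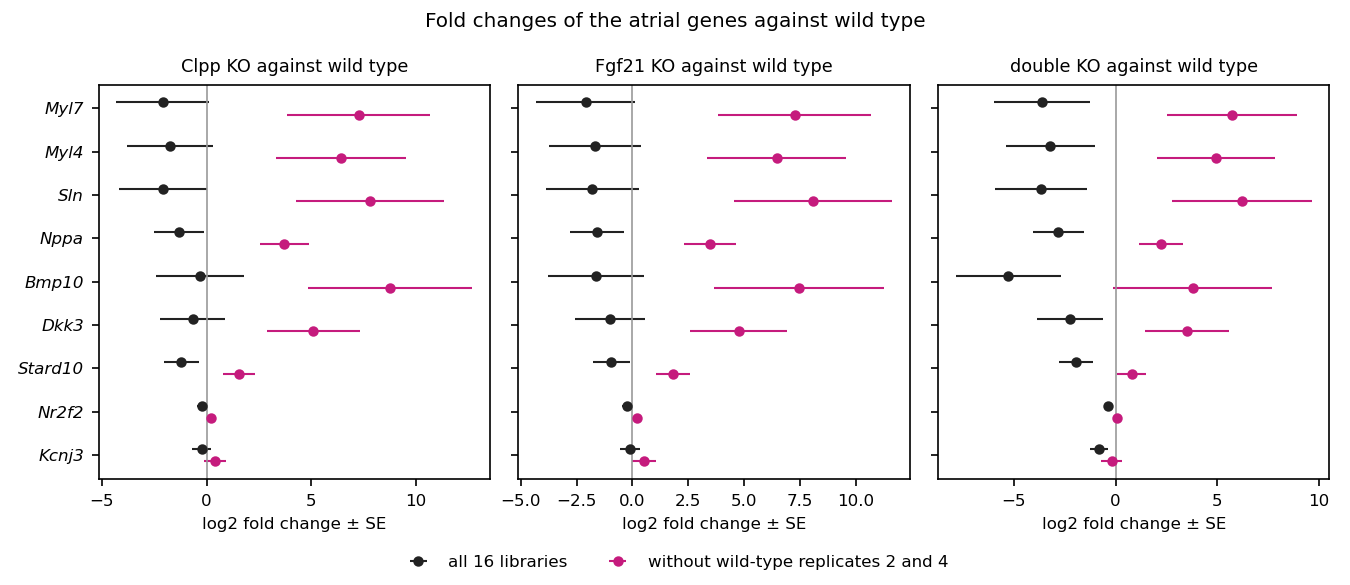
Log2 fold change with its standard error for the 9 genes in Clpp KO, Fgf21 KO and double KO against wild type, from edgeR over all 16 libraries (black) and without wild-type replicates 2 and 4 (pink). The black points lie left of 0 for all 9 genes, and the pink points lie right of 0 except for Kcnj3 in double KO.

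The effect of adding Fgf21 loss to Clpp loss was assessed in double KO against Clpp KO, and that of adding Clpp loss to Fgf21 loss in double KO against Fgf21 KO. In double KO against Clpp KO all 9 genes lay below 0, with a median of −1.49 against 0.01 over all genes, and 0 were called. Bmp10 had both the smallest p and the largest change, with 2.17 ± 4.24 CPM in double KO and 69.2 ± 74.6 CPM in Clpp KO (log2 fold change −4.96 ± 2.54, edgeR adjusted p = 0.994, n = 4 each). Of all genes 0.059% were called and 3.55% had an unadjusted p under 0.05, against 0 of the 9. This median was −4.09 without double KO replicate 1 and −0.35 without Clpp KO replicate 2, the libraries richest in Myl7 of each group. In double KO against Fgf21 KO all 9 genes were again below 0, with a median of −1.25 and 0 called. Kcnj3 had the smallest p, with 29.8 ± 12.6 CPM in double KO and 48.4 ± 25.3 CPM in Fgf21 KO (−0.70 ± 0.45, edgeR adjusted p = 0.798), and Bmp10 the largest change (−3.65 ± 2.42, edgeR adjusted p = 0.807). Of all genes 0.892% were called and 7.09% had an unadjusted p under 0.05, against 0 of the 9. Without double KO replicate 1 the median was −3.77, and without Fgf21 KO replicate 4 it was −0.63.

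The interaction asks whether Fgf21 loss had another effect on the background of Clpp loss than on the wild-type background. None of the 9 genes was called, 6 lay above 0 and 3 below it, and the median was 0.11. Bmp10 had the smallest p and the largest value (−3.34 ± 3.13, edgeR adjusted p = 1). Of all genes edgeR called 0%, while 1.96% had an unadjusted p under 0.05, which 0 of the 9 had. Without wild-type replicates 2 and 4 all 9 values were below 0, with a median of −6.34, and without double KO replicate 1 the median was −3.11. The comparisons share groups: with the interaction, 4 of the 6 use the same wild-type libraries and 4 the same double KO libraries, so their like directions are not separate observations.

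The order of the 4 genotypes depended on the scale. By mean CPM, wild type was highest and double KO lowest for all 9 genes. By mean log2 CPM, double KO was again lowest for all 9, but wild type was highest for 3 (Stard10, Nr2f2 and Kcnj3), Fgf21 KO for 3 (Myl7, Myl4 and Sln) and Clpp KO for 3 (Nppa, Bmp10 and Dkk3). For Myl7 the mean log2 CPM was 1.39 ± 4.47 in double KO, 6.01 ± 3.04 in Clpp KO, 6.81 ± 1.62 in Fgf21 KO and 5.43 ± 5.93 in wild type, with SD over 4 libraries. Neighbours in either order overlapped for every gene, in each of the 5 pairs of groups compared. The spread behind this was large for most of the genes. The biological coefficient of variation fitted by edgeR, the spread between libraries of a group beyond counting error, was 1.77 for Myl7, 1.66 for Myl4, 1.92 for Sln, 2.06 for Bmp10, 1.35 for Dkk3, 1.05 for Nppa, 0.759 for Stard10, 0.433 for Kcnj3 and 0.222 for Nr2f2, against a median of 0.187 over all genes.

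Genes outside the 9 that followed them were ranked by their correlation with the mean of the 9 over the 16 libraries. Of 15246 other genes tested, 184 had r of at least 0.8, which is 1.21%, and the median over all was −0.04. Fgf12 stood first (r = 0.98), a member of the fibroblast growth factor family that stays in the cell and binds sodium channels. Mybphl, an atrial relative of myosin-binding protein H, had r = 0.98, and Mlana, best known as a melanocyte antigen, 0.97. Then came Cilp2 and Lmntd1 (0.97), Tbc1d1, a regulator of vesicle traffic, Slc7a7, an amino acid transporter subunit, Sytl2, Sbk2, Cacna2d2, an auxiliary subunit of calcium channels, Gng2 and Sbk3, at 0.93 to 0.94. Within the 10 libraries of the high set, which are among the 16 that chose them, these 12 genes had r of 0.87 to 0.97, and 559 of all genes (3.67%) had r of at least 0.8 there.

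Mybphl gives an example of the likeness in levels. It was 40.4, 0.286, 0 and 0.128 CPM in double KO, 12.5, 83.8, 29.8 and 0.660 CPM in Clpp KO, 5.28, 25.4, 7.20 and 66.2 CPM in Fgf21 KO, and 0.147, 178, 0.204 and 123 CPM in wild type. Fgf12 had 8.51, 0.343, 0.124 and 0.289 CPM in double KO, 3.00, 15.7, 6.66 and 0.503 CPM in Clpp KO, 1.17, 4.61, 1.67 and 14.1 CPM in Fgf21 KO, and 0.220, 24.8, 0.289 and 19.3 CPM in wild type. Mlana was 1.49, 0.0286, 0.0931 and 0.0641 CPM in double KO, 0.915, 5.05, 2.06 and 0.0943 CPM in Clpp KO, 0.0711, 2.33, 0.789 and 2.97 CPM in Fgf21 KO, and 0.0733, 11.8, 0.0511 and 6.25 CPM in wild type. The 3 genes were low in the same 6 libraries as Myl7, and Mlana was also low in Fgf21 KO replicate 1. Sbk3, a protein kinase of the SH3-binding family, was 41.4, 6.78, 5.28 and 5.32 CPM in double KO, 16.3, 103, 29.8 and 5.41 CPM in Clpp KO, 8.04, 43.9, 12.8 and 87.9 CPM in Fgf21 KO, and 2.25, 118, 2.18 and 43.4 CPM in wild type. As for Nppa, its level in the low set was lower in wild-type replicates 1 and 3 than in the 4 Clpp-deficient libraries. Again, both wild-type libraries are the closest pair within a group.

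Among 1241 genes with a mean of at least 1 CPM and an SD of at least 0.5 on the log2 scale, from which the 12 above were also taken, the 6 most opposed to the 9 had r of −0.65 to −0.70. Without those limits, 8 of all genes tested had r of −0.8 or lower, and the 6 were not among them. The 6 were Ptgds, a prostaglandin D synthase, Fam220a, the interferon-induced GTPase gene Tgtp2, the RNA helicase gene Mov10l1, the autophagy receptor gene Optn and the receptor gene Gpr22. Optn, for example, was 68.6 to 79.2 CPM in double KO, 61.6 to 71.0 CPM in Clpp KO and 58.0 to 83.4 CPM in Fgf21 KO, and 74.8, 20.1, 75.3 and 32.4 CPM in wild type. Without wild-type replicates 2 and 4 the 6 opposed genes had r of −0.41 to −0.54, weaker than over all 16. Of the 31-base words of Fam220a, 98.8% occur in a second entry of the same symbol.

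Of 14 other genes known from atrial muscle, 7 had r of at least 0.8 and the median was 0.79. The highest were Mybphl (0.98), Sbk2 (0.94), Sbk3 (0.93) and Pam (0.89), the enzyme that amidates peptide hormones in atrial granules. Pam was 565, 289, 315 and 312 CPM in double KO, 392, 841, 493 and 255.8 CPM in Clpp KO, 275, 702, 335 and 942 CPM in Fgf21 KO, and 292, 1024, 301 and 844 CPM in wild type. No library had less than 255.8 CPM of Pam. Kcnj5, which encodes the partner subunit of GIRK1, had r = 0.56, Hey1 0.03 and the potassium channel gene Kcnk3 −0.22, so not every gene with an atrial name followed. No gene of this list was called in any of the 6 comparisons.

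Most ventricular cardiomyocyte genes moved the other way. Of 9, 0 had r of at least 0.8, all 9 were below 0 and the median was −0.52, with Irx4, a ventricular transcription factor, at −0.73, the ventricular light chain genes Myl3 at −0.69 and Myl2 at −0.66, and Pln, the gene of phospholamban, at −0.65. Myh7 of the same list had −0.03 over all libraries and 0.58 within the high set, where Hey2 had 0.10. Irx4 was 17.5, 21.7, 20.9 and 26.2 CPM in double KO, 14.6, 17.0, 14.8 and 21.7 CPM in Clpp KO, 18.6, 22.1, 24.1 and 17.9 CPM in Fgf21 KO, and 21.0, 6.93, 22.3 and 10.1 CPM in wild type. Wild-type replicates 2 and 4 were lowest. Summed over the list, ventricular genes gave 7175 and 11980 CPM in these 2 libraries, with 11000 to 18580 CPM in the other 14 libraries. Ventricular transcripts were thus abundant in every library, including those richest in atrial genes. Genes shared by all cardiomyocytes had a median of −0.47 over 10 genes, led by Ttn at −0.62, Actn2 at −0.58, Myh6 at −0.52 and Nkx2-5 at −0.51. Their summed level was 21720 and 35250 CPM in those 2 wild-type libraries and 31340 to 45400 CPM in the other 14.

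Apart from Nppa, the natriuretic peptide system followed little: of 6 genes tested out of 7, 0 had r of at least 0.8, with Npr3, the clearance receptor, at 0.65, Npr1, the receptor of atrial natriuretic peptide, at 0.57, Corin, the protease that activates the peptide, at 0.37 and Npr2 at 0.30. Nppb, which encodes B-type natriuretic peptide and lies next to Nppa, had r = 0.08. Nppb was 79.4, 62.1, 157 and 80.2 CPM in double KO, 61.8, 92.6, 63.6 and 77.8 CPM in Clpp KO, 67.2, 41.3, 112 and 60.9 CPM in Fgf21 KO, and 88.8, 87.4, 89.8 and 350 CPM in wild type. It was highest in wild-type replicate 4 and did not follow Nppa elsewhere. Sinoatrial and conduction genes followed in part, with 3 of 8 tested at r of at least 0.8. Cacna2d2 had 0.94, Shox2, a transcription factor gene of the pacemaker, 0.84, and Vsnl1 0.78. Others of the list followed less or not at all, with Hcn4 at 0.44, Tbx3 at 0.33 and Smoc2 at −0.22. Their list summed to 85.6 and 98.1 CPM in wild-type replicates 2 and 4, with 42.6 to 80.4 CPM in the others.

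Markers of several other tissues were also high in wild-type replicates 2 and 4. The summed level of 8 fat genes was 57.2 and 198 CPM there and 13.98 to 28.2 CPM in the other 14 libraries, and that of 5 genes of smooth muscle and great vessels 699 and 1100 CPM there and 126 to 343 CPM elsewhere. In the same order, 7 Schwann cell genes gave 29.5 and 20.5 CPM against 8.64 to 13.3, 10 genes of cardiac ganglia and nerve 18.4 and 47.2 against 8.99 to 14.3, and 5 melanocyte genes 18.6 and 12.8 against 1.32 to 6.66. Much of the melanocyte sums was Mlana, which is among the 12 genes most like the atrial mean. Mlana gave 11.8 and 6.25 CPM in these 2 libraries, and 5.05 of the 6.66 CPM in Clpp KO replicate 2. Epicardial genes gave 34.0 and 30.98 CPM against 3.58 to 29.8, and lymphatic and venous genes 197 and 145 against 87.0 to 129. Genes of lung and airway were near 0 throughout, at 0 to 0.157 CPM in sum, and those of thymus and T cells at most at 0.970 CPM. Skeletal muscle genes reached at most 1.52 CPM, and erythroid genes ran from 637 to 10960 CPM, with 2495 and 7309 CPM in those 2 libraries. What these tissues contributed to the fold changes above was not tested.

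By correlation, 3 of 6 fat genes tested had r of at least 0.8 (Cfd and Retn at 0.84 and Adipoq at 0.83, with Plin1 at 0.74), as did 1 of 7 Schwann cell genes, where S100b had 0.65, Gfra3 0.62 and Foxd3 0.56, and Mlana of 3 melanocyte genes tested, with Pmel at 0.59 and Dct at 0.22. Ucp1 and Cidea, also of the fat list, followed less, at 0.54 and 0.11. Adipoq, the gene of adiponectin, reached 7.98 CPM in wild-type replicate 2 and 21.4 CPM in replicate 4 and no more than 2.29 CPM in any other. In the remaining lists no gene reached r of 0.8. The highest in each were Krt19, Upk3b, Upk1b and Msln of the epicardium (0.60 to 0.73), Lyve1, Pdpn, Vwf and Ackr1 of lymphatic and venous endothelium (0.56 to 0.69), Eln, Cnn1, Acta2 and Myh11 of vessels (0.57 to 0.74), Actn3 and Tnnt3 of skeletal muscle (0.64 and 0.52), and Prph, Uchl1 and Stmn2 of nerve (0.52, 0.34 and 0.19). The rest of the lymphatic and venous list did not all follow, with Emcn at 0.48, Flt4 at 0.44 and Prox1 at −0.39. Haemoglobin and other erythroid genes had negative values, with −0.34 for Alas2 and −0.28 for Hbb-bs, and Cd8a of T cells −0.12. Over all 16 lists and 6 comparisons edgeR called 2 genes. Both calls were in Clpp KO against wild type, where edgeR called 1.63% of all genes. They are not read as a result about their lists. Stmn2, a neuronal gene, fell by 1.53 ± 0.29 in Clpp KO against wild type on the log2 scale (adjusted p = 0.00992), and Dct, an enzyme of melanin synthesis, fell by 1.66 ± 0.24 (adjusted p = 0.00157). Their r with the atrial mean was 0.19 and 0.22.

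**Figure D5:**
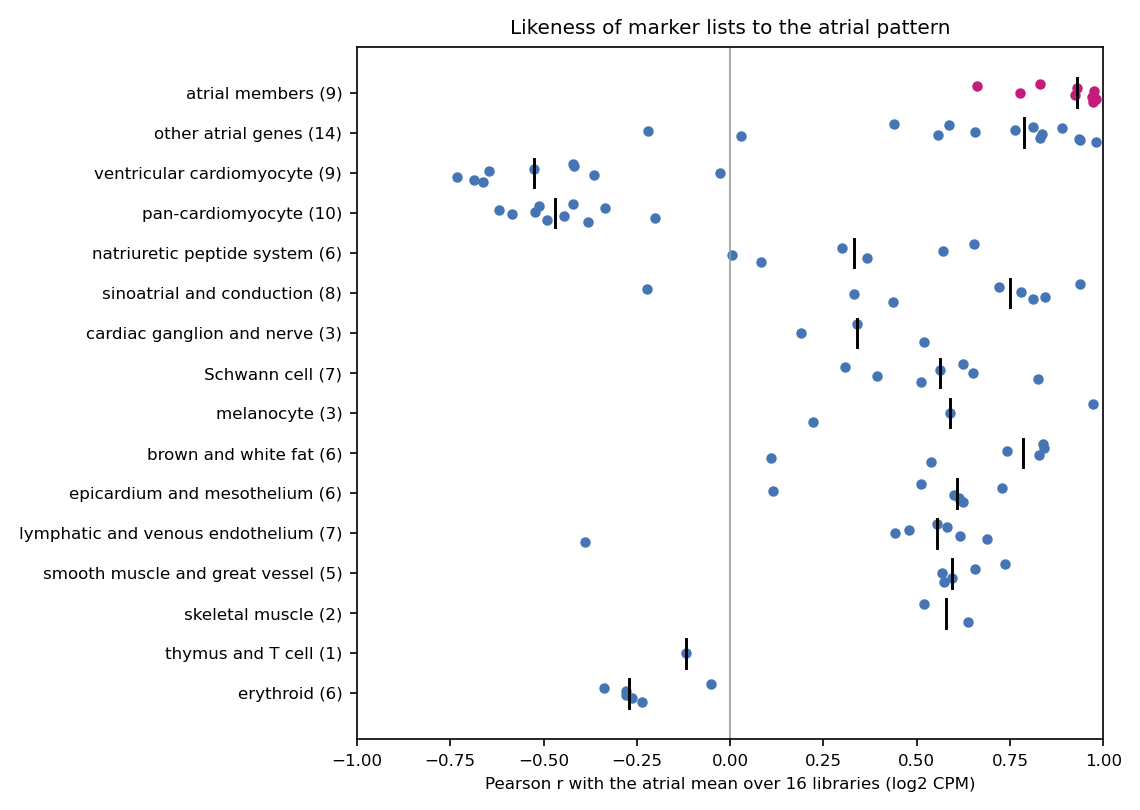
Pearson correlation with the mean of the 9 atrial genes over 16 libraries for the genes of each marker list that passed the filter, with their number in brackets; for the 9 genes themselves (pink), each against the mean of the other 8. Bars are medians, at 0.93 for the 9 genes, 0.79 for other atrial genes and −0.52 for ventricular genes.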

How the data were processed

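RNA from mouse cardiac tissue was sequenced in 16 libraries, 4 per genotype, from a stranded mRNA kit per the labels' protocols. Per the submitters' processing notes, the tools were kallisto 0.46.1, fastp 0.21.0, R 4.0.3, DESeq2 1.30.1 and edgeR 3.32.1, with build GRCm38.p6. The authors deposited whole-number counts per gene for each library. kallisto shares reads that match several transcripts between them, and no label says if counting used strand, so genes that share sequence or overlap are uncertain.

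The counts were tested as deposited with edgeR 4.0.16 in R 4.3.3. Genes were kept by filterByExpr (count minimum 10, total minimum 15), which left 15255 genes, and libraries were scaled by TMM. One robust quasi-likelihood model over all 16 libraries gave the 6 comparisons, with two-sided p-values adjusted by Benjamini and Hochberg over all genes tested and a threshold of 0.05. A gene past that threshold is called. A value after ± is the standard error of a fold change, or the SD of a level. All 9 genes passed the filter, so the permutation test planned for low genes was not needed. Log2 CPM used a prior count of 2. Coordinates and shared 31-base words come from GENCODE M21 on GRCm38. limma 3.58.1 and DESeq2 1.42.0 gave alternatives. The steps were tested on simulated data.

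The 9 genes and the 16 marker lists were chosen with earlier results of these data known. Named are the 9 genes, Clpp and Fgf21, the 12 genes most and the 6 least correlated with the mean of the 9 (mean of at least 1 CPM, SD of log2 CPM of at least 0.5, a symbol of their own), and up to 4 genes of each list with the largest absolute correlation; in each comparison, the gene with the smallest p and that with the largest fold change. Kcnj5, Hey1, Kcnk3, Nppb, Dct, Emcn, Flt4, Prox1 and the examples with values were named after their values were seen. So were Hcn4, Tbx3, Smoc2, Myh7, Hey2, Ucp1 and Cidea. Some genes that the rule names are not reported here.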

Additional observations from a re-analysis of the deposited data

Results flagged for a closer look

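In the double KO group, replicate 1 stood apart from replicates 2, 3 and 4 for 7 of the 9 atrial genes. Its level was 247 CPM for Myl7 (next highest in the group 1.32), 302 CPM for Myl4 (1.95), 51.9 CPM for Sln (0.315), 731 CPM for Nppa (244), 8.54 CPM for Bmp10 (0.0858), 64.6 CPM for Dkk3 (6.50) and 42.9 CPM for Stard10 (14.2). In each case the gap to the nearest other library took most of the range of the group, by Dixon's criterion at 95%. Of 36 combinations of gene and group examined, these 7 were found. The criterion was applied to CPM. On log2 CPM the gap takes a smaller part of the range in each case, so the count depends on the scale. A chance rate of about 1 in 20 holds for normally distributed values and cannot be taken over to CPM spread this widely. The 7 rest on the same library, so they are not separate events. Nr2f2 and Kcnj3 did not meet the criterion in that library. Among the other groups none did, although wild type divides into 2 high and 2 low libraries, a division that this criterion does not detect. No cause was tested.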

How the results depend on the processing

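Over RLE size factors, no filter, a filter of at least 1 CPM in 4 libraries, DESeq2, the groups compared alone, the replicate block, wild-type replicates 1 and 3 summed, wild-type replicates 2 and 4 both left out and each library left out in turn, none of the 9 genes was called in any comparison. Scaling by library size alone gave calls among the 9, all lower. With wild type as the reference, 1 was called for Clpp KO (Nr2f2) and 5 for double KO. With Fgf21 KO as the reference, 2 were called for double KO. In the same order, 11933, 13124 and 10858 of all 15255 genes were called, a larger share each time than among the 9. The median of all genes then moved to −0.79, −0.92 and −0.70. limma voom called 3 in Clpp KO against wild type, all higher, where it called 2815 of all 15255 genes. Most directions against wild type turned without wild-type replicates 2 and 4 and with voom: for Clpp KO, Stard10 to 1.54 and 1.20 and Myl7 to 7.26 and 5.80; for Fgf21 KO, Nppa to 3.46 and 2.58 and Myl7 to 7.25 and 5.63; for double KO, Stard10 to 0.79 and 0.62 and Bmp10 to 3.80 and 1.15. Without wild-type replicate 2, 5 of the 9 genes stayed below 0 for Clpp KO and 7 for Fgf21 KO. For Clpp KO, 8 did with the replicate block or without Clpp KO replicate 1 or 4, and for Fgf21 KO, 8 did without Fgf21 KO replicate 1 or 3. The causes were not tested. The interaction could not be fitted with the groups compared alone, and Bmp10 had no value there in double KO against Fgf21 KO.

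Replicate numbers are shared by the groups, but the deviations of same-numbered libraries correlated at −0.23 to 0.36, over 0.1 in 4 of 24 pairs, so the numbers were not taken to pair samples. With the replicate block the interaction of Bmp10 was 0.0388 in place of −3.34, and 0 of 9 genes were called in each comparison.

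Of the 12 genes most like the atrial mean, 5 stayed among the 12 highest by Spearman's rho, 7 with Myl7 alone as the score, and 8 to 12 with a library left out. In analyses chosen after seeing the data, 5 stayed within the 10 libraries with Myl7 of at least 10 CPM and 2 within the other 6, where r turned for Nppa (−0.35), Nr2f2 (−0.35), Tgtp2 (0.31) and Mov10l1 (0.20). Low counts limit Myl7, Sln and Bmp10 in the low set.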
